A study of Mus musculus with 19 samples.

Results

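The 10 genes described here encode the MHC class II presentation machinery of mouse B cells: the transactivator gene Ciita, the invariant chain gene Cd74, the classical chain genes H2-Aa, H2-Ab1 and H2-Eb1, the DM genes H2-DMa, H2-DMb1 and H2-DMb2, and the DO genes H2-Oa and H2-Ob. They were chosen by symbol, and all 10 were found among the 22101 genes listed in the 4 deposited expression tables. The RNA came from B lineage cells that were sorted at day 28 after injection of sheep red blood cells, a classical T-dependent antigen that all groups received. The series sets Pik3cg knockout mice against wild-type mice, and its design text counts 4 and 3 animals. Pik3cg encodes p110γ, a catalytic subunit of phosphoinositide 3-kinase.

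Antibody-secreting cells labelled wild type were sorted on CD138 from bone marrow (n = 3) and from spleen (n = 3). Splenic germinal centre B cells, sorted as CD95+ and GL7+, came as 4 libraries labelled knockout and 3 labelled wild type. Splenic naive B cells, sorted as CD3-, B220+ and IgD+, came as 3 libraries labelled knockout and 3 labelled wild type. All 9 wild-type labels outside the germinal centre table belong to columns headed HET, and the files do not settle whether a wild-type or a heterozygous genotype is right. The labels do not say which libraries came from the same mouse, and p-values measure only the spread between these libraries.

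Class II molecules show peptides from endosomes to CD4+ T cells. In the usual account, CIITA drives the class II genes as a coactivator bound to factors on the X and Y boxes of their promoters, invariant chain escorts the new αβ dimers and blocks their groove, DM exchanges the remaining invariant chain peptide for antigenic peptide, and DO, made mainly by B cells, inhibits DM. Plasma cells are known for silencing CIITA and with it the class II genes.

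Values are counts per 1000000 assigned reads (CPM), from 10.2 to 21.6 M reads per library (1 M is 1000000), and 3 reads corresponded to 0.139 to 0.293 CPM. The labelled cell types were checked against their markers before any comparison. Plasma cell markers, Jchain among them, summed to 136284 to 159567 CPM in bone marrow and 111772 to 115671 CPM in spleen antibody-secreting cells. They summed to 1181 to 1426 CPM in naive libraries labelled wild type. Among germinal centre libraries, the 7 germinal centre markers summed to 2170 to 2854 CPM where the label was knockout and 237 to 263 CPM where it was wild type. Rgs13, Gcsam and S1pr2 were each listed at 0 in every one of the 3 libraries with the wild-type label, while Fcer2a (CD23, a marker of follicular naive B cells) stood at 1525 to 2439 CPM there, against 1064 to 1337 CPM in naive libraries labelled wild type. The germinal centre identity of the 3 libraries labelled wild type was thus not borne out by these markers, apart from Fas (the CD95 of the gate) at 197 to 226 CPM. They are called germinal centre libraries labelled wild type only because the labels do so. Pik3cg did not settle the genotype labels either. Its germinal centre levels were 66.0, 52.8, 6.55 and 9.04 CPM under the knockout label and 56.5, 34.3 and 19.4 CPM under the wild-type label. Knockout-labelled replicates 3 and 4 thus lay below every library with the wild-type label, and replicates 1 and 2 did not. Naive levels of Pik3cg were 94.98 to 127 CPM under the knockout label and 110.1 to 115 CPM under the wild-type label.

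Of the members, 8 lie on mouse chromosome 17 (build mm10, GENCODE release M21), in the order H2-Oa (34092340 to 34095234), H2-DMa (34119541 to 34139101), H2-DMb2 (34143307 to 34151555), H2-DMb1 (34153072 to 34160230), H2-Ob (34238903 to 34254414), H2-Ab1 (34257689 to 34269419), H2-Aa (34282744 to 34287823) and H2-Eb1 (34305867 to 34316674). H2-Aa is on the minus strand and the other 7 are on the plus strand. Ciita lies on chromosome 16 (10480059 to 10528418, plus strand). H2-DMb1 and H2-DMb2 are near copies: 369 words of 50 bases occur in the exons of both, 22.7% of those of H2-DMb1 and 21.2% of those of H2-DMb2. The split of reads between this pair is therefore uncertain.

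Promoter sequences are shown for the letters of the class II boxes named above. RefSeq promoter windows (GRCm38.p6, 250 bases before to 50 after each start) were searched for GNAAC, the letters that begin the X box, followed 15 to 35 bases later by GATTGG, the inverted CCAAT of the Y box. The capitals mark these letters, and each sequence is written 5′ to 3′ on the gene's strand.
H2-Aa: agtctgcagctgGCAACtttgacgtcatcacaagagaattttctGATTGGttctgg
H2-Eb1: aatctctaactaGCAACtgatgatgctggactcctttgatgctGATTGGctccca
H2-DMb1: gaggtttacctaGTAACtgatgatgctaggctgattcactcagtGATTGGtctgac
H2-DMb2: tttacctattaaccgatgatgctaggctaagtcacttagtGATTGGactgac
H2-DMa: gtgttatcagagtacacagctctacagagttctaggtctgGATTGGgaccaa
H2-Oa: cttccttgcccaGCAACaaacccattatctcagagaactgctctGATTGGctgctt
H2-Ob: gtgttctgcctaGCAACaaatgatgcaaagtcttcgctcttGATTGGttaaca
They lie at chr17:34287861-34287916 (H2-Aa, minus strand) and, on the plus strand, at chr17:34305764-34305818 (H2-Eb1), chr17:34153085-34153140 (H2-DMb1), chr17:34145118-34145169 (H2-DMb2), chr17:34125279-34125330 (H2-DMa), chr17:34092291-34092346 (H2-Oa) and chr17:34238806-34238858 (H2-Ob).

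The spaced pair occurred in the windows of 5 of the 7 members shown, against 0.597% of 32851 promoters searched on the gene strand and 1.21% on both strands. The gap was 27 bases in H2-Aa, H2-DMb1 and H2-Oa, 26 in H2-Eb1 and 24 in H2-Ob. GATTGG alone was in a window of all 7, 44 to 62 bases before the start in these 5 genes, 91 in H2-DMb2 and farther upstream in 1 of 2 windows of H2-DMa. It occurred in 8.71% of promoters on the gene strand and 16.1% on both, and GNAAC alone was in 84.8% when both strands were searched. A match is a description of the letters, and the windows of H2-DMb2 and H2-DMa say only that the spaced pair is not in them.

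Across the 6 groups, class II transcripts were abundant in germinal centre and naive libraries and scarce in antibody-secreting cells. The 10 genes together made up 0.111% to 0.148% of assigned reads in bone marrow antibody-secreting cells, 0.232% to 0.355% in splenic ones, and 5.03% to 5.91% in germinal centre libraries with the knockout label. They made up 6.35% to 8.27% in germinal centre libraries with the wild-type label. In naive libraries the share was 6.62% to 7.01% under the knockout label and 6.14% to 6.97% under the wild-type label. Every antibody-secreting cell library lay below every B cell library. The tables are separate files, so levels across them are described and not tested. In bulk RNA, fewer cells of a type and less RNA per cell cannot be told apart.

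**Figure D1:**
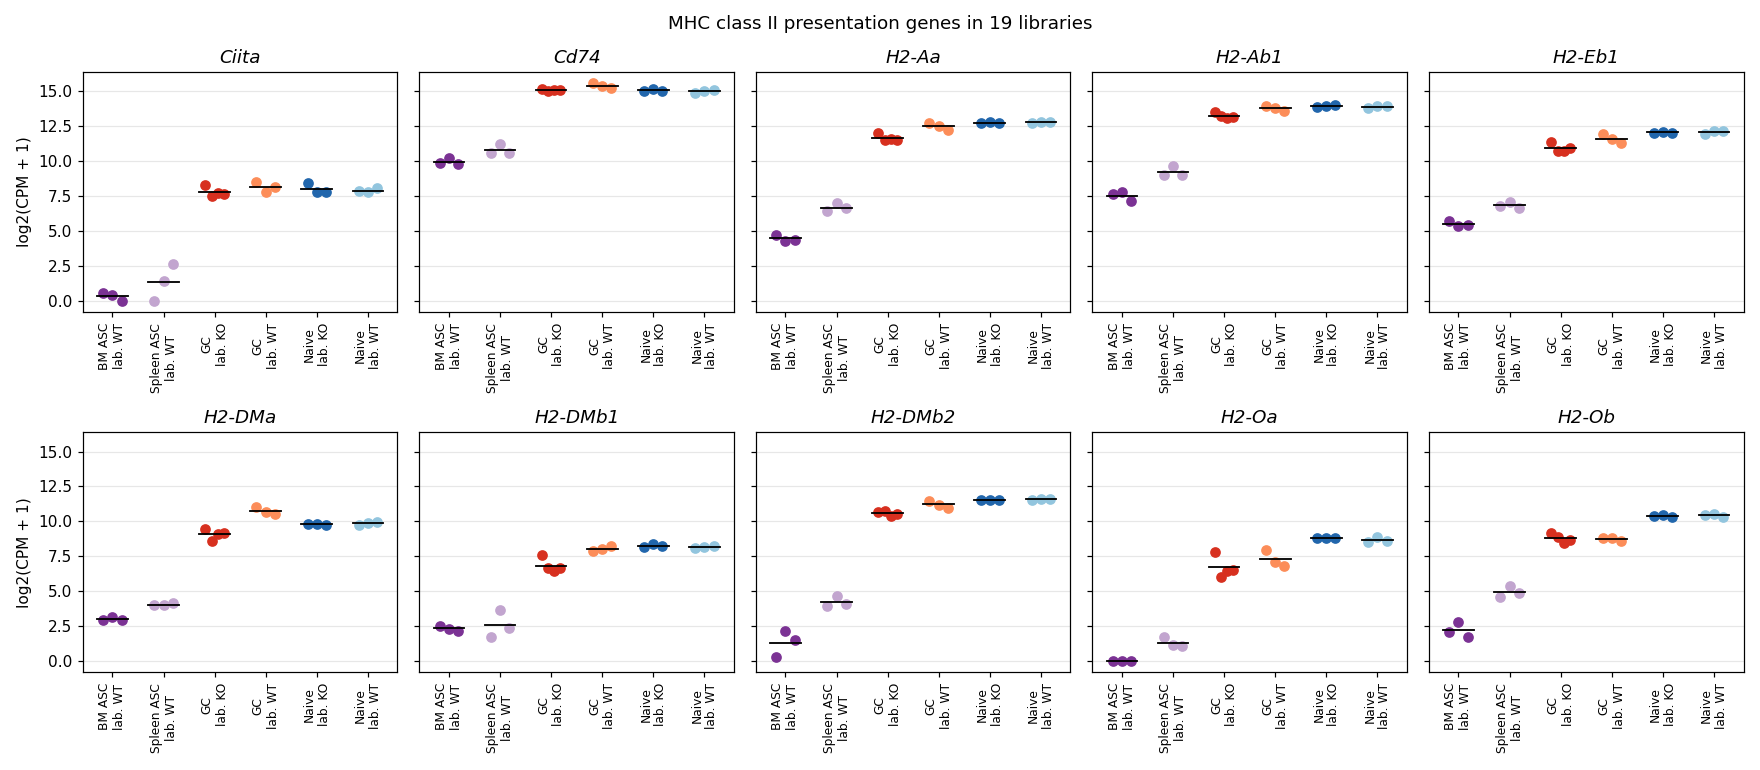
Level of each of the 10 genes in all 19 libraries as log2(CPM + 1), 1 point per library, with a bar at the mean of the group. BM ASC and spleen ASC are bone marrow and splenic antibody-secreting cells, GC is germinal centre, and lab. KO and lab. WT are the labelled genotypes. The 6 antibody-secreting cell libraries sit below the 13 B cell libraries in every panel, with H2-Oa at 0 in bone marrow.

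Ciita, the transactivator gene, was close to the detection limit in antibody-secreting cells. It had 0.509, 0.324 and 0 CPM in the 3 bone marrow libraries, which is 7, 4 and 0 reads, and 0, 1.68 and 5.30 CPM in the 3 splenic libraries, against 229, 221.9 and 265 CPM in naive libraries labelled wild type. The splenic mean was 103 times lower than the naive mean (28.3 times with immunoglobulin and Jchain transcripts out of the total), although 1 library of 87 reads carried most of it. The bone marrow and splenic ranges overlapped.

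Cd74, whose product is the invariant chain, lies on chromosome 18 (60803848 to 60812652, plus strand, mm10) and kept the highest level per length in every group. It had 957, 1181 and 892 CPM in bone marrow and 1535, 2399 and 1555 CPM in spleen antibody-secreting cells, against 30635, 32592 and 35686 CPM in naive libraries labelled wild type. These were 32.6 and 18.02 times lower in bone marrow and spleen, or 6.14 and 4.77 times with immunoglobulin and Jchain transcripts out of the total. Among the 9 members with a ratio to naive cells in both tissues, those were the smallest reductions.

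The classical chain genes were lower still relative to naive cells. H2-Aa, which encodes the I-A α chain, had 26.04, 18.2 and 20.2 CPM in bone marrow and 85.6, 127 and 97.5 CPM in spleen antibody-secreting cells, against 6646, 7277 and 7148 CPM in naive libraries labelled wild type. Its mean was 327 times lower in bone marrow and 68.0 times lower in spleen, or 62.1 and 18.1 times without immunoglobulin and Jchain in the total. H2-Ab1, the I-A β chain gene, was 81.8 and 24.6 times lower in bone marrow and spleen (15.2 and 6.51 times without them), and H2-Eb1, the I-E β chain gene, 97.0 and 37.6 times lower (18.4 and 10.02 times without them). The β and α chain genes of I-A also stood in another ratio: H2-Ab1 over H2-Aa was 6.88 to 12.1 in bone marrow and 5.39 to 6.31 in spleen, against 2.11 to 2.23 in naive libraries labelled wild type. Such ratios of CPM carry the genes' lengths and are read here only between groups.

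Among the peptide editing genes, H2-DMa stood at 6.59 to 7.86 CPM in bone marrow and 15.0 to 16.6 CPM in spleen antibody-secreting cells, against 879 to 994 CPM in naive libraries labelled wild type. H2-DMb2 had 0.218, 3.40 and 1.82 CPM in bone marrow and 14.3, 25.01 and 15.9 CPM in spleen, against 2959, 3146 and 3171 CPM in naive libraries. Its partner copy H2-DMb1 had 4.87, 4.05 and 3.58 CPM in bone marrow and 2.35, 11.7 and 4.15 CPM in spleen, against 269, 285 and 298 CPM. The order of the 2 copies was turned round in bone marrow, where H2-DMb2 over H2-DMb1 was 0.0448 to 0.840, against 10.6 to 11.0 in naive libraries. The values of H2-DMb2 there rest on 3, 42 and 32 reads.

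H2-Oa, the DO α chain gene, was listed at 0 in all 3 bone marrow libraries and had 2.35, 1.22 and 1.16 CPM in the 3 splenic ones, against 367.1, 469 and 393 CPM in naive libraries labelled wild type. H2-Ob, the DO β chain gene, had 3.27, 5.92 and 2.38 CPM in bone marrow and 23.3, 40.03 and 28.7 CPM in spleen, against 1433, 1497 and 1264 CPM in those naive libraries. Between the tissues, 8 of the 10 members were lower in every bone marrow library than in every splenic one, both DO genes among them, while Ciita and H2-DMb1 overlapped. Of these 8, 7 averaged at least 10 CPM over the 6 libraries, and at that level 28.6% of all genes were lower in every bone marrow library.

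Immunoglobulin and Jchain transcripts took 78.0% to 83.6% of reads in bone marrow antibody-secreting cells and 72.4% to 76.7% in splenic ones, against 3.91% to 4.17% in naive libraries labelled wild type, which lowers the CPM of every other gene there. With those transcripts out of the total, the 10 genes made up 0.504% to 0.903% of the remaining reads in bone marrow and 0.850% to 1.53% in spleen, against 6.41% to 7.26% in naive libraries labelled wild type. The summed level was then 9.68 times lower in bone marrow and 6.37 times lower in spleen, in place of 51.5 and 24.1 times as deposited. All 10 members were below naive libraries in every splenic and every bone marrow library on both scales. The backgrounds count genes averaging at least 10 CPM over the libraries of both groups. Members such as Ciita and H2-Oa, with few reads in antibody-secreting cells, met this only through their naive levels. For them the filter itself favours lying below. As deposited, 88.1% of genes were below in bone marrow and 83.6% in spleen, with a median log2 ratio over all genes of −2.27 and −1.94, so that count says little about the members. Without immunoglobulin and Jchain, the background was 21.2% in bone marrow and 26.9% in spleen, with median log2 ratios of 0.08 and −0.06. Between bone marrow and spleen, 8 members averaged at least 10 CPM on that scale, of which 6 were lower in every bone marrow library, against 6.49% of genes.

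Markers of B cells were lower too. The 9 B cell markers summed to 501 to 600 CPM in bone marrow and 706 to 883 CPM in spleen antibody-secreting cells, against 16499 to 17100 CPM in naive libraries labelled wild type. With immunoglobulin and Jchain out of the total, this sum was 2730 to 3211 CPM in bone marrow and 3033 to 3193 CPM in spleen. It was 17171 to 17810 CPM in those naive libraries. Ms4a1, which encodes CD20 and is 1 of the 9, fell more than the sum. It was 338 times lower in bone marrow and 96.1 times lower in spleen, or 65.4 and 25.7 times without immunoglobulin and Jchain in the total. The dendritic cell markers summed to 1.38 to 2.95 CPM in bone marrow and 2.74 to 3.17 CPM in spleen, against 3.44 to 6.94 CPM in naive libraries labelled wild type, and Cd209a and Clec10a were listed at 0 in all 6 antibody-secreting cell libraries. The monocyte and macrophage markers summed to 67.8 to 243 CPM in bone marrow and 115 to 202 CPM in spleen, against 30.2 to 102 CPM in those naive libraries. With immunoglobulin and Jchain out of the total, both of these sums were higher than in naive libraries labelled wild type, without overlap. The dendritic cell sum was then 8.40 to 16.4 CPM in bone marrow and 9.92 to 12.1 CPM in spleen, against 3.59 to 7.22 CPM in naive libraries labelled wild type. The monocyte and macrophage sum was 392 to 1482 CPM in bone marrow and 425 to 866 CPM in spleen, against 31.5 to 106 CPM in those naive libraries. In naive libraries labelled knockout, the dendritic cell sum on that scale was 5.59 to 20.7 CPM and overlapped both tissues. The part of other cells in the remaining class II signal was not tested.

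**Figure D2:**
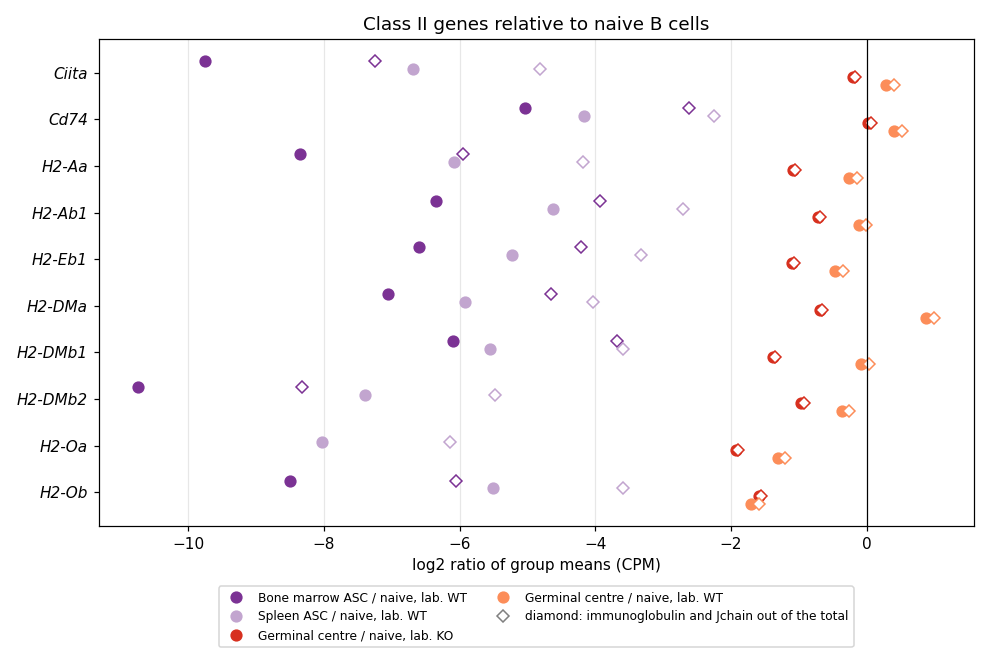
Log2 ratio of the mean CPM of each group to that of naive B cells of the same labelled genotype, for each gene. Circles use CPM as deposited, and diamonds use totals without immunoglobulin and Jchain. In antibody-secreting cells (ASC) the diamonds lie to the right of the circles and still left of 0, while germinal centre values lie within 2 log2 units of 0. H2-Oa has no bone marrow point because it is listed at 0 there.

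Per kilobase of transcript, naive libraries labelled wild type ranked the genes as Cd74 (23384 CPM per kb), H2-Ab1 (12536), H2-Aa (6227), H2-Eb1 (2621), H2-DMb2 (2171), H2-DMa (571), H2-Ob (524), H2-Oa (376.6), H2-DMb1 (202) and Ciita (39.7). The libraries of H2-DMa and H2-Ob overlapped on this scale, and those of the other neighbours did not. By mean, the first 4 came in the same order in both germinal centre groups and in spleen antibody-secreting cells, while in bone marrow H2-Eb1 (27.0) stood above H2-Aa (19.04) without overlap.

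Between germinal centre and naive libraries the members did not move as a block. In libraries labelled knockout, 8 of the 10 were lower in every germinal centre library than in every naive one, against a background of 22.6%. In libraries labelled wild type, 4 of 10 were, against 29.0%. These comparisons cross tables and the label groups have the marker differences given above, so they are levels without a test.

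Both DO genes and H2-Eb1 and H2-DMb2 were the 4 that lay lower under both labels. Under the knockout label, H2-Ob had 569, 475, 346 and 414 CPM in germinal centre libraries and 1335, 1413 and 1297 CPM in naive libraries. Under the wild-type label, it had 453, 452 and 386 CPM in germinal centre libraries and 1433, 1497 and 1264 CPM in naive libraries. The means were 2.99 and 3.25 times lower. H2-Oa was 3.79 and 2.48 times lower under the same labels.

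H2-DMa went opposite ways by label. Under the knockout label it had 693, 383, 561 and 577 CPM in germinal centre libraries and 903, 904 and 875 CPM in naive libraries. Under the wild-type label it had 2092, 1654 and 1477 CPM in germinal centre libraries and 879, 966 and 994 CPM in naive libraries. Neither pair of groups overlapped, and the germinal centre mean was 0.62 times the naive mean under the knockout label and 1.84 times under the wild-type label.

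Cd74 was 1.02 times its naive level in germinal centre libraries labelled knockout, with overlap, and 1.33 times in those labelled wild type, without overlap. Ciita overlapped between germinal centre and naive libraries under both labels. Immunoglobulin and Jchain took 2.63% to 8.31% of reads in germinal centre libraries labelled knockout and 6.99% to 13.6% in those labelled wild type, and without them 8 and 4 members still lay lower in every library, against 22.1% and 26.7% of genes.

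The stoichiometry of the transcripts differed between the groups. DO over DM, the summed CPM of H2-Oa and H2-Ob over that of the 3 DM genes, was 0.199 to 0.386 in bone marrow and 0.797 to 0.812 in spleen antibody-secreting cells. It was 0.217 to 0.313 in germinal centre libraries labelled knockout and 0.132 to 0.138 in those labelled wild type. In naive libraries it was 0.416 to 0.436 under the knockout label and 0.371 to 0.447 under the wild-type label. Within germinal centre libraries the labels did not overlap, and both lay below all naive libraries. Cd74 over the summed classical chains was 3.47 to 4.42 in bone marrow and 2.11 to 2.26 in spleen antibody-secreting cells. It was 2.03 to 2.55 in germinal centre libraries labelled knockout and 1.84 to 1.98 in those labelled wild type. In naive libraries it was 1.17 to 1.32 under the knockout label and 1.18 to 1.29 under the wild-type label. Every library outside the naive table thus had more Cd74 per classical chain transcript than every naive library. These ratios carry no test.

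**Figure D3:**
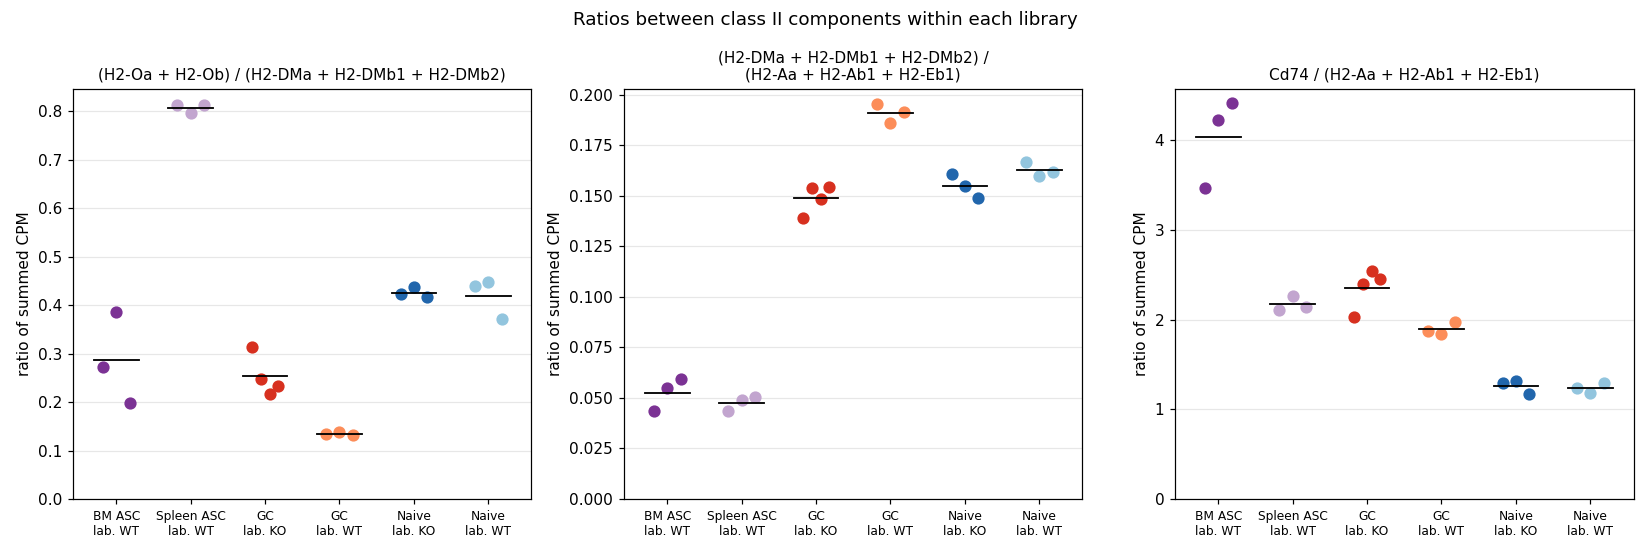
Ratios of summed CPM within each library, 1 point per library and a bar at the mean of the group, for DO over DM, DM over the classical chains and Cd74 over the classical chains. Groups are bone marrow (BM) and splenic antibody-secreting cells (ASC), germinal centre (GC) and naive B cells by labelled genotype. DO over DM is lowest in germinal centre libraries labelled wild type (0.132 to 0.138), and Cd74 over classical chains is highest in bone marrow.

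Within germinal centre libraries, 5 of the 10 members were lower in those labelled knockout and none was higher (limma, Benjamini-Hochberg adjusted p under 0.05 over all 8522 genes tested). The background was 5.09% of genes lower, 8.54% higher and 13.6% in either direction. At an unadjusted p under 0.05 it was 7 members, against 28.2% of genes. The median log2 fold change was −0.60 over the 10 members and 0.03 over all genes. By fold change the order was H2-DMa, H2-DMb1, H2-Aa, H2-DMb2 and H2-Ab1, which are the 3 DM genes and both I-A chain genes. Ciita, the gene of their shared transactivator, did not pass.

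H2-DMa encodes the DM α chain. From the levels given above, it averaged 554 ± 128 CPM in libraries labelled knockout (SD, n = 4) and 1741 ± 316 CPM in those labelled wild type (SD, n = 3). It was 3.18 times lower in libraries labelled knockout (95% interval 2.29 to 4.41; log2 −1.67, limma adjusted p = 0.0014), and the groups did not overlap.

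H2-DMb1 had 190.1, 99.3, 84.9 and 102 CPM in libraries labelled knockout, against 241, 266 and 297 CPM in those labelled wild type. The groups did not overlap, and replicate 1 stood above the other 3 labelled knockout. The difference was 2.35-fold lower (95% interval 1.53 to 3.62; log2 −1.23, limma adjusted p = 0.0181).

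H2-DMb2 had 1658, 1693, 1346 and 1491 CPM in libraries labelled knockout, against 2855, 2345 and 2014 CPM in those labelled wild type. It was 1.54 times lower (95% interval 1.22 to 1.95; log2 −0.63, limma adjusted p = 0.0233) without overlap. H2-DMa over H2-DMb2 was 0.226 to 0.418 in libraries labelled knockout, against 0.705 to 0.734 in those labelled wild type, a ratio given without a test.

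H2-Aa had 4087, 2908, 3037 and 2910 CPM in libraries labelled knockout, against 6902, 5862 and 4866 CPM in those labelled wild type. The groups did not overlap, and the gene was 1.82 times lower (95% interval 1.397 to 2.36; log2 −0.86, limma adjusted p = 0.0099). H2-Ab1 had 11530.5, 9523, 8724 and 9242 CPM in libraries labelled knockout, against 15801, 13971 and 12344 CPM in those labelled wild type. It was 1.44 times lower without overlap (95% interval 1.15 to 1.80; log2 −0.53, limma adjusted p = 0.0403).

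H2-Eb1 and Cd74 did not pass. The Cd74 groups did not overlap, and those of H2-Eb1 overlapped in 1 pair of libraries. H2-Eb1 had 2681, 1695, 1657 and 1928 CPM in libraries labelled knockout, against 3853, 3104 and 2575 CPM in those labelled wild type, which is −0.68 on the log2 scale (limma adjusted p = 0.0531). Cd74 had 37147, 33833, 34196 and 34571 CPM in libraries labelled knockout, against 49919, 42302 and 39165.5 CPM in those labelled wild type, which is −0.32 on the log2 scale (limma adjusted p = 0.153). With immunoglobulin and Jchain out of the total, both passed as well and 7 members were called. In all, 6 members lay lower in every library labelled knockout than in every library labelled wild type, against 11.7% of genes.

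Ciita had 318, 180.1, 213 and 203 CPM in libraries labelled knockout, against 358, 226 and 291 CPM in those labelled wild type, with overlap (log2 −0.36, 95% interval −0.89 to 0.17, limma adjusted p = 0.359). H2-Oa had 227, 65.0, 86.4 and 92.2 CPM in libraries labelled knockout, against 245, 139 and 113 CPM in those labelled wild type, also with overlap (log2 −0.58, 95% interval −1.56 to 0.39, limma adjusted p = 0.421). H2-Ob, whose levels are given above, differed by 0.05 on the log2 scale (95% interval −0.36 to 0.46, limma adjusted p = 0.899), a value that turned below 0 with immunoglobulin and Jchain out of the total, with median-of-ratios scaling, and without knockout-labelled replicate 1 or wild-type-labelled replicate 3. The intervals of Ciita and H2-Oa include the log2 fold change of H2-Ab1.

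**Figure D4:**
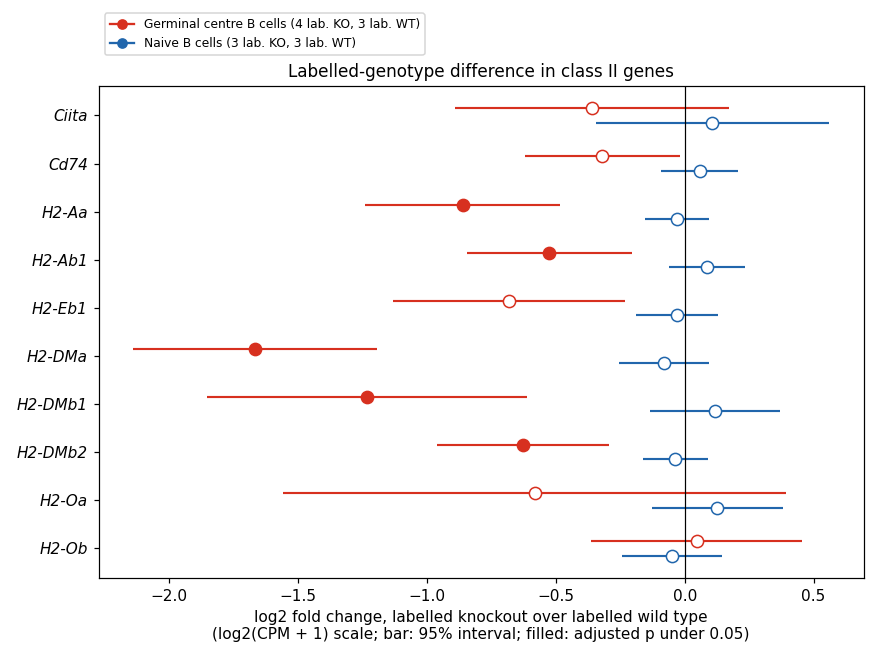
Log2 fold change of each gene, labelled knockout over labelled wild type, in germinal centre (upper point of each pair) and naive B cells (lower point). Bars are 95% intervals from limma, and filled points have an adjusted p under 0.05. The 5 filled points, all germinal centre, run from −1.67 for H2-DMa to −0.53 for H2-Ab1, and the 10 naive points lie between −0.08 and 0.13.

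Marker genes of other cell types also differed between these germinal centre libraries. All 9 tested T cell markers were higher in libraries labelled knockout, with a summed level of 1059 to 2154 CPM, against 52.8 to 89.8 CPM in those labelled wild type, and Cd3d, Cd3e and Cd3g were each listed at 0 in the 3 libraries of the wild-type label. Of 7 germinal centre markers, 6 were higher and none was lower. The plasma cell markers had 5 of 8 lower and none higher, with summed levels of 4099 to 12082 CPM under the knockout label and 7292 to 11555 CPM under the wild-type label. The B cell markers had 4 higher and 2 lower of 9. Their sums overlapped, at 6746 to 7470 CPM under the knockout label and 5533 to 7306 CPM under the wild-type label. Dendritic cell markers summed to 35.2 to 186 CPM under the knockout label and 27.3 to 44.2 CPM under the wild-type label, and Itgax, Xcr1 and Clec10a were each listed at 0 in the 3 libraries of the wild-type label. Monocyte and macrophage markers summed to 195 to 1460 CPM under the knockout label and 176 to 384 CPM under the wild-type label. Of 3 tested dendritic cell markers, 1 was higher and none was lower. Of 10 tested monocyte and macrophage markers, 3 were higher and none was lower. The part of these cell type differences in the class II result was not tested.

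Replicate 1 labelled knockout had the highest dendritic cell and macrophage sums (186 and 1460 CPM) and the highest level of 9 of the 10 members among the 4 libraries labelled knockout. Without it, 6 members were called lower, with H2-Eb1 added. Leaving out the wild-type-labelled replicate 2 left H2-Aa and H2-DMa as the only called members, and these 2 were called under all 18 alternatives. Without knockout-labelled replicate 3 or 4, or wild-type-labelled replicate 1, 3 members were called, the third being H2-DMb1.

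In naive B cells none of the 10 members passed, nor did any of 8832 genes (0.0%; limma, adjusted p under 0.05). Unadjusted, 587 genes (6.65%) and none of the members had a p under 0.05. All 10 overlapped between the labels, while 13.6% of genes did not overlap and 7.61% lay lower in every library labelled knockout. H2-DMa, at the levels given above, differed by −0.08 on the log2 scale (95% interval −0.26 to 0.10). H2-Aa had 6686, 7020 and 6910 CPM in naive libraries labelled knockout, against 6646, 7277 and 7148 CPM in those labelled wild type (log2 −0.03, 95% interval −0.15 to 0.09). Over the 10 members the log2 fold changes ran from −0.08 to 0.13. Intervals were narrow for most members and widest for Ciita (−0.34 to 0.56).

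The difference between the cell types was itself tested, as the labelled genotype effect in germinal centre libraries minus that in naive libraries, each taken within its own table. It passed for H2-DMa (log2 −1.59, 95% interval −2.13 to −1.04, limma adjusted p = 0.0022), H2-DMb1 (−1.35, −2.05 to −0.65, adjusted p = 0.0226) and H2-Aa (−0.83, −1.27 to −0.39, adjusted p = 0.0240). These were 3 of 10 members, against 2.82% of 8871 genes lower, 5.02% higher and 7.83% in either direction. Unadjusted, 7 members had a p under 0.05, against 20.8% of genes. H2-Ab1 (adjusted p = 0.0508) and H2-DMb2 (adjusted p = 0.0549) lay just outside. The fit treated germinal centre and naive libraries as independent, since the labels do not say which share a mouse. The marker differences between the germinal centre label groups enter this test too, and their part was not tested. H2-DMa passed under all 24 alternatives. It was the 1 member left without germinal centre wild-type-labelled replicate 2, naive knockout-labelled replicate 2, or naive wild-type-labelled replicate 1 or 2, while 6 passed without germinal centre knockout-labelled replicate 1.

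Other genes of the pathway were read from lists in the same germinal centre fit. Of 13 tested genes that regulate class II transcription, 2 fell, against 5.09% of all genes. Both, Prdm1 and Irf4, are also among the plasma cell markers counted above. The list as a whole leaned the other way, with a median log2 fold change of 0.52, against 0.03 over all genes. Prdm1, which encodes the plasma cell repressor Blimp-1, averaged 7.09 ± 9.60 CPM in libraries labelled knockout (n = 4) and 82.2 ± 23.1 CPM in those labelled wild type (SD, n = 3; log2 −4.27, limma adjusted p = 0.0261). Irf4, a factor of plasma cell and activated B cell programmes, averaged 26.7 ± 14.7 CPM under the knockout label and 144 ± 32.0 CPM under the wild-type label (log2 −2.51, limma adjusted p = 0.0057).

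None of 9 tested endosomal processing genes passed, against 13.6% of all genes in either direction. Ctss, the protease that trims invariant chain, averaged 707 ± 185 CPM in libraries labelled knockout and 1099 ± 114 CPM in those labelled wild type (limma adjusted p = 0.062). Ctsb, a lysosomal protease, had 1636, 584, 345 and 397 CPM in libraries labelled knockout, against 423, 456 and 564 CPM in those labelled wild type, with replicate 1 labelled knockout far above the rest (limma adjusted p = 0.690).

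Of 3 tested genes of class II turnover and other class II chains, 1 rose and 1 fell, against 8.54% and 5.09% of all genes. Marchf1 encodes the ubiquitin ligase that sends surface class II for degradation, and it had 253, 181, 262 and 145 CPM in libraries labelled knockout, against 33.6, 40.3 and 28.2 CPM in those labelled wild type (log2 2.56, limma adjusted p = 0.0007). Cd83, whose product opposes that ubiquitination, had 682 to 1110.0 CPM under the knockout label and 2248 to 3411 CPM under the wild-type label (log2 −1.50, limma adjusted p = 0.0021). Neither pair of groups overlapped. Marchf1 is described in the germinal centre table only.

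For class I presentation, 1 of 11 tested genes rose and 2 fell, against 8.54% and 5.09% of all genes. The proteasome subunit gene Psmb8 averaged 1112 ± 63.7 CPM in libraries labelled knockout and 529 ± 43.0 CPM in those labelled wild type (log2 1.07, limma adjusted p = 0.0008). Tapbp, which encodes tapasin, had 124.2, 143, 95.1 and 106 CPM under the knockout label and 256, 305 and 359 CPM under the wild-type label (log2 −1.38, limma adjusted p = 0.0028), and B2m, the class I light chain gene, averaged 2582 ± 426 CPM under the knockout label and 5093 ± 387 CPM under the wild-type label (log2 −0.99, limma adjusted p = 0.0026). Of 5 tested costimulation genes only Cd86 passed, against 13.6% of all genes in either direction. It stood at 220 ± 35.2 CPM in libraries labelled knockout and 56.7 ± 22.1 CPM in those labelled wild type (log2 2.01, limma adjusted p = 0.0033). No gene of these 5 lists passed in naive B cells, where no gene of any kind passed, so this says nothing particular about the lists. Marchf1 was not tested there. The marker differences given above move with these lists too.

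Over the 19 libraries, the genes whose log2(CPM + 1) was most like the mean of the members, among 8216 ranked, were Cd47 (r = 0.993), Swap70 (r = 0.989), Iqgap1 (r = 0.987), Rps27a (r = 0.986) and Tmem50a (r = 0.986). The libraries fall into antibody-secreting and other B cells, and all genes of a library share its immunoglobulin fraction and its total. The correlations carry no test.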

How the data were processed

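Reads were aligned with STAR to mm10, per the submitters' processing notes; versions, the counting tool and strand use were not given in the sources used. The authors deposited CPM in 4 tables. The germinal centre table had 0.0001 added to each value, which was subtracted. Date-like gene names in the other tables were left out. The step between low CPM values gave the depth, and below 1000 reads 61.5% to 67.8% of germinal centre values and 85.2% to 88.8% of other values were whole reads within 0.02, so no count test was run. The level that 3 reads correspond to covers counting error only, while limma's intervals come from the spread between libraries.

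The test was limma 3.58.1 (R 4.3.3, trend) on log2(CPM + 1) for genes averaging 10 CPM or more, which understates the changes of low genes, with Benjamini-Hochberg adjustment over all genes tested. Tables were fitted separately, and the difference of effects in a fit of both. The design assumed a unit not yet known, and CPM left the test unchanged. Lengths are those of GENCODE M21 principal transcripts, or the longest coding one for Ciita. All 10 members are named, and of each other list up to 3 called genes with the largest change, or the 2 highest where none was called. A called gene is not reported here. The members and lists were chosen with earlier results of these data known. Alternatives covered pseudocount, filter, scaling, weights, robust estimation, threshold, replicate block and leaving out each library. The test was checked on simulated data. Python 3.11.15, pandas 2.3.3 and matplotlib 3.10.9 were used.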

Additional observations from a re-analysis of the deposited data

Results flagged for a closer look

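Replicate 1 of the germinal centre libraries labelled knockout stood apart from the other 3 for H2-Aa (4087 CPM), H2-DMb1 (190.1 CPM) and H2-Oa (227 CPM), each the highest of its group by Dixon's criterion. The 10 genes were each tested in this 1 group of 4 libraries, and all 3 marks fall on the same library. Chance marks about 1 in 20 groups, but these 10 tests are not independent. The same library had the highest dendritic cell and macrophage marker sums of its group, and their part was not tested.

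The labelled genotype effect differed between germinal centre and naive libraries for H2-Aa (log2 −0.83), H2-DMa (−1.59) and H2-DMb1 (−1.35), by limma's test of the difference itself at an adjusted p under 0.05. Only H2-DMa was left without naive wild-type-labelled replicate 1 or 2. The germinal centre label groups also differed in their cell type markers, as given above, and the part of those differences was not tested.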

How the results depend on the processing

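The germinal centre count of 1162 genes became 519 at an adjusted p under 0.01, 603 to 1134 with 1 library left out (732, 603 and 712 without wild-type-labelled replicate 1, 2 or 3), and 432 without knockout-labelled replicate 1 and wild-type-labelled replicate 3 together, an alternative added after seeing the data. The 5 members called became 2 at 0.01 and 2 to 6 with 1 library left out: 3 without knockout-labelled replicate 3 or 4 or wild-type-labelled replicate 1, and 2 without wild-type-labelled replicate 2. For the difference of effects, 695 genes became 311 at 0.01, and the 3 members called became 5 with a pseudocount of 5, a mean of at least 1 CPM, median-of-ratios scaling, robust estimation or library weights, 6 without immunoglobulin and Jchain, 1 at 0.01 and 7 with both libraries out. With 1 library left out they ran from 1 to 6: 6 without germinal centre knockout-labelled replicate 1, and 1 without germinal centre wild-type-labelled replicate 2, naive knockout-labelled replicate 2, or naive wild-type-labelled replicate 1 or 2. H2-Ob in germinal centre libraries turned to −0.036 without immunoglobulin, −0.0061 with median-of-ratios scaling, −0.073 to 0.17 with 1 library left out and −0.15 with both out. Its difference of effects ran from −0.024 to 0.21 with 1 library left out and turned to −0.10 with both out. Ctsb ran from −0.15 (without knockout-labelled replicate 1) to 0.60 with 1 library left out, and was −0.027 with both out. In naive libraries H2-Eb1 (−0.093 to 0.0071), Ciita (−0.12 to 0.23) and H2-Ob (−0.12 to 0.0021) changed sign with 1 library left out. The log2 ratio of the summed members to naive libraries, −4.59 in splenic and −5.69 in bone marrow antibody-secreting cells, became −2.67 and −3.27 without immunoglobulin and −2.62 and −3.29 with median-of-ratios scaling. Why these values moved was not tested, beyond fewer libraries, a stricter threshold or the changed total.

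Libraries of equal replicate number but different label were compared within each cell type. Their deviations from the group means correlated at 0.079, 0.0006 and 0.0078 in germinal centre and −0.047, 0.038 and −0.034 in naive libraries. These correlations cannot show whether germinal centre and naive libraries came from the same mice. With the numbers as a replicate block, 831 genes and 5 members were called in germinal centre libraries (H2-Eb1 gained, H2-DMb1 lost), 653 genes and 2 members for the difference, and none in naive libraries. Depth did not limit the B cell values, but in antibody-secreting cells Ciita rests on 0 to 87 reads a library, H2-Oa on 0 to 34 and H2-DMb1 on 34 to 153, and in bone marrow H2-DMb2 on 3 to 42 and H2-Ob on 42 to 73.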
